A study of Mus musculus with 6 samples.

Results

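Enpp2 encodes autotaxin, and its members here were all transcripts that the deposited table assigned to that gene, 189 of 36659 transcripts in the series. The gene was chosen by its transcript count and its splice forms in these same cells, so both are given below as a description. Enpp2 (ENSMUSG00000022425.16) lies on the minus strand of mouse chromosome 15 in GRCm38 (mm10), at chr15:54838901-54952892, and GENCODE M21 lists 9 transcripts of it, of which 4 are linked to RefSeq. The union of these 4 models has 27 exons, numbered below from the 5′ end.

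Autotaxin is a secreted lysophospholipase D that makes lysophosphatidic acid (LPA), a signalling lipid, from lysophosphatidylcholine in the extracellular fluid. In the brain it is known from the choroid plexus and from oligodendrocytes, and the protein has been studied in process outgrowth and differentiation of the oligodendrocyte lineage. Its forms are named alpha, beta and gamma after alternative exons, and beta lacks the exons that set off the other two forms.

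The study sequenced stored cDNA of single cells from the brain of CD-1 mice with PacBio long reads, to see which full-length mRNAs 1 cell holds. There were 6 cells: VLMC-1 and VLMC-2 (vascular and leptomeningeal cells in the study, although the sample labels name them oligodendrocyte progenitors), Oligo1-1 and Oligo1-2 (immature oligodendrocytes) and Oligo5-1 and Oligo5-2 (mature myelinating oligodendrocytes). The labels give the stage of every cell as embryo, and no treatment or genetic change, and do not say which animal a cell came from. The paper states that the single cells came from hippocampus and cortex and gives no age, so the embryo stage rests on the labels alone. A transcript is a group of reads of 1 cell and gene with the same unique molecular identifier (UMI), a tag of 6 random bases added to each cDNA before amplification. Each cell is 1 sample, so no test compares cells or cell types, and all intervals are exact 95% binomial intervals that cover counting error alone.

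The cells held 2338 to 11483 transcripts each, from 7610 to 20509 reads. Of 10 oligodendrocyte markers, 9 or 10 had transcripts in each of the 4 oligodendrocytes (9.19% to 14.3% of all transcripts) and 0 in the VLMCs. Of 10 VLMC markers, 9 were found in both VLMCs and 0 in the oligodendrocytes. Choroid plexus markers, which matter for Enpp2, gave 1 transcript in VLMC-1 and 0 in each of the other cells. Oligo5-2 also held 37 transcripts of 5 of 6 neuronal markers, 0.596% of its transcripts, while the other cells held 0, and the part of this in the Enpp2 values was not tested.

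Exons 12 and 21 separate the annotated forms, and both can be read in the reference sequence. The exons are shown in full because each is either present or absent as a block in a molecule (GENCODE M21, GRCm38, mRNA strand, chromosome 15 minus strand).
Exon 12 (chr15:54877776-54877931): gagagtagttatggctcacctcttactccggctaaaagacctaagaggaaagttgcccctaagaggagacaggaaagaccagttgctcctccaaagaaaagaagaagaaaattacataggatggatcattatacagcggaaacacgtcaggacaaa
Exon 21 (chr15:54851348-54851422): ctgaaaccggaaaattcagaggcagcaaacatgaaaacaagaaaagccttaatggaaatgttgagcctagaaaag

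Exon 12 has 156 bp, or 52 codons, and is found in Enpp2-203 and Enpp2-204, the alpha form. Exon 21 has 75 bp, or 25 codons, and is found in Enpp2-202, the gamma form. Enpp2-201, the beta form, has neither, with a coding sequence of 862 codons against 887 in Enpp2-202 and 914 in Enpp2-203. Both exons are whole numbers of codons, so either can be left out without a shift of the reading frame.

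Another difference lies at the end of exon 19, where Enpp2-204 uses a 5′ splice site 12 bases, or 4 codons, earlier than the other models. The last 60 bases of the longer exon are shown, with the bases that the shorter exon lacks in capitals.
Exon 19, 3′ part (chr15:54862498-54862557): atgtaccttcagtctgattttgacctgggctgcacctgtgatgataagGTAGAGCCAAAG
The bases in capitals begin with GT, the first bases of most introns.

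Enpp2 transcripts were found in the 4 oligodendrocytes and in neither VLMC. VLMC-1 had 0 of 2338 transcripts, which allows a share of up to 0.128%, and VLMC-2 had 0 of 4689, which allows up to 0.064%. Oligo1-1 had 82 of 11483 transcripts, or 0.714% (interval 0.568% to 0.886%). Oligo1-2 had 41 of 6043, or 0.678% (0.487% to 0.919%). Oligo5-2 had 36 of 6211, or 0.58% (0.406% to 0.802%), and Oligo5-1 had 30 of 5895, or 0.509% (0.344% to 0.726%). Each oligodendrocyte therefore lay above the limits of both VLMCs, while neighbours in the order of the 4 oligodendrocytes had intervals that overlapped. Fewer molecules of the gene and a smaller part of them captured cannot be told apart in such shares.

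**Figure D1:**
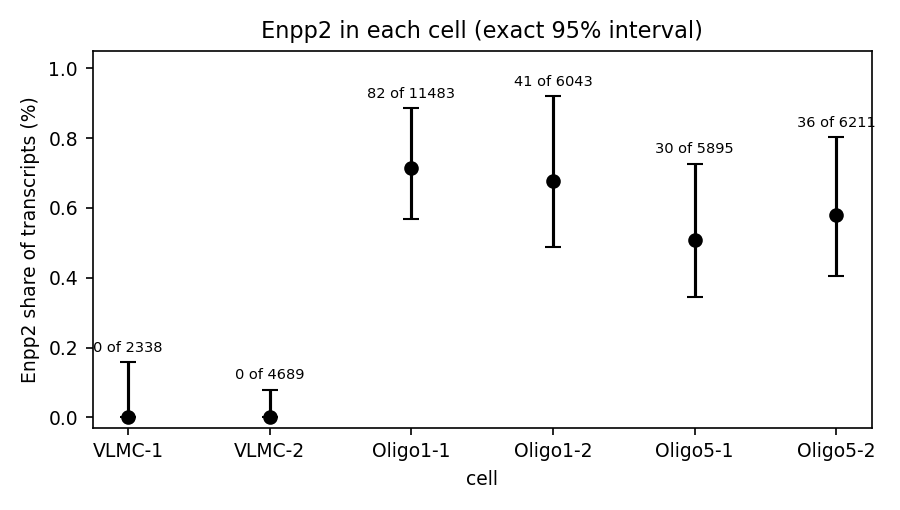
Share of the transcripts of each cell (y axis, percent) that were assigned to Enpp2, by cell (x axis), with exact 95% binomial intervals and the counts above them. The VLMCs sit at 0 and the 4 oligodendrocytes between 0.509% and 0.714%, with overlapping intervals.

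The 189 transcripts were merged from 365 reads, and 112 of them rested on a single read. Their aligned length ran from 115 to 3287 bp, and its median was 2378 bp for Oligo1-1, 570 bp for Oligo1-2, 564 bp for Oligo5-1 and 2446 bp for Oligo5-2. An annotated first exon was covered by 43 of 82 transcripts in Oligo1-1 and 18 of 36 in Oligo5-2, but by 1 of 41 in Oligo1-2 and 0 of 30 in Oligo5-1. The cells were thus split by reach and not by stage, with 1 well covered and 1 poorly covered cell at each stage. The same cells were low for all other genes, where 12.6% of transcripts in Oligo1-2 and 20.1% in Oligo5-1 covered a first exon against 48.9% in Oligo1-1 and 49.7% in Oligo5-2. Among 219 genes, Enpp2 included, with at least 20 transcripts and a matched RefSeq-linked model, Enpp2 ranked 125 from the top for this share, with 32.8% against a median of 38.1%. Among the 104 of these with a model of 3000 nt or more it ranked 38, against a median of 19%.

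The sequencing run moved with the reach. The study made a short run and a second run enriched for long molecules. Of 87 transcripts read in the short run alone, 4 covered the first exon, with a median aligned length of 450 bp. Of 86 read in the long run alone, 56 did, with a median of 2736 bp. The long run alone gave 45 of 82 transcripts in Oligo1-1 and 25 of 36 in Oligo5-2, against 10 of 41 in Oligo1-2 and 6 of 30 in Oligo5-1.

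**Figure D2:**
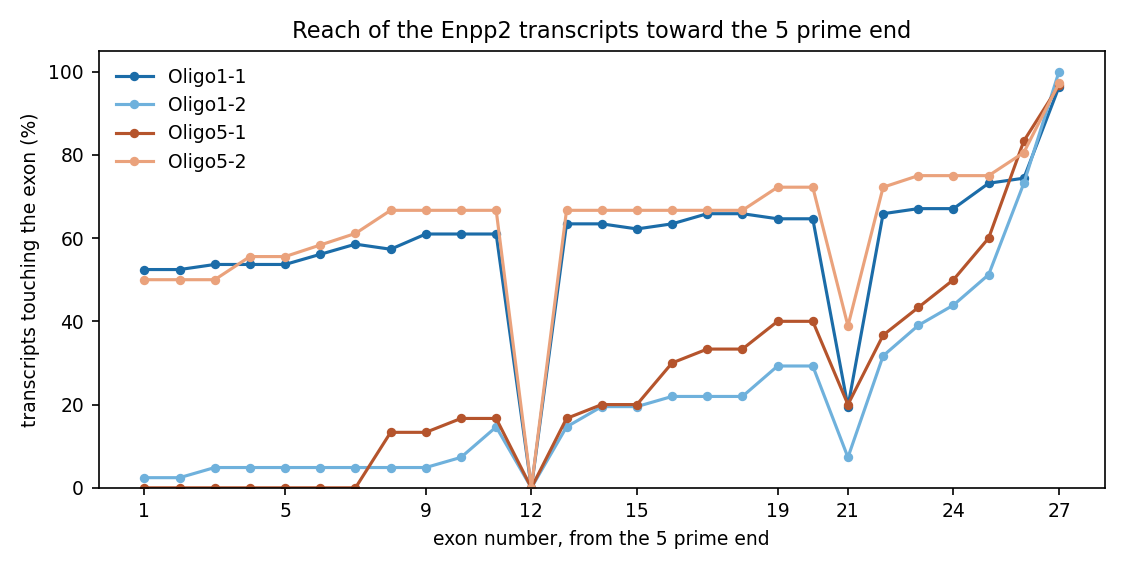
Percent of the Enpp2 transcripts of each oligodendrocyte (y axis) that touch each of the 27 exons (x axis, numbered from the 5′ end). Oligo1-1 and Oligo5-2 stay at 50% or above up to exon 1 apart from exons 12 and 21, and Oligo1-2 and Oligo5-1 lie below 20% at exon 13.

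The alpha exon was not found. Exon 12 was absent from 50 of 50 transcripts that spanned it in Oligo1-1, from 6 of 6 in Oligo1-2, from 5 of 5 in Oligo5-1 and from 24 of 24 in Oligo5-2. The 0 of 85 in all allows a share of up to 3.53% (exact upper end 4.25%). By cell, the count of 0 allows up to 6% in Oligo1-1 and 12.5% in Oligo5-2 (exact 7.11% and 14.2%). The few spanning transcripts of Oligo1-2 and Oligo5-1 allow up to 50% and 60% (exact 45.9% and 52.2%). Exon 13, the next exon, was present in 85 of the 85 transcripts that spanned it.

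The gamma exon was found in every oligodendrocyte, beside transcripts without it. Exon 21 was present in 16 of 53 spanning transcripts in Oligo1-1, or 30.2% (18.3% to 44.3%). It was present in 3 of 12 in Oligo1-2, or 25% (5.49% to 57.2%). In Oligo5-1 it was present in 6 of 11, or 54.5% (23.4% to 83.3%), and in Oligo5-2 in 13 of 25, or 52% (31.3% to 72.2%). Both mature cells had higher values than both immature cells, but the intervals of all 4 cells overlapped. The order depended on the transcripts used. Among those that covered a first exon it turned, with 39% for Oligo1-1 and 35.3% for Oligo5-2. For UMIs with 2 or more reads the values were 27.6% for Oligo1-1, 50% for Oligo1-2, 33.3% for Oligo5-1 and 28.6% for Oligo5-2. Such transcripts numbered 9 in Oligo1-2, 20 in Oligo5-1 and 8 in Oligo5-2. Not all of them spanned exon 21, so these percentages rest on few molecules. Over all spanning transcripts of the 4 cells, exon 21 was present in 38 of 101, or 37.6% (28.2% to 47.8%).

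The value of Oligo5-1 rested on UMIs that resembled each other. In that cell 4 transcripts with exon 21 had 5′ ends at chr15:54897774-54897776 in exon 8, shared the distal 3′ end described below, and had UMIs linked by steps of 1 substitution or a shift by 1 base. Counting such near UMIs as 1 transcript where both ends lay within 5 bp left 166 of the 189 transcripts and 2 of 7 with exon 21 in Oligo5-1, or 28.6% (3.67% to 71%). The other cells moved little, with 13 of 42 (31%) in Oligo1-1, 3 of 12 (25%) in Oligo1-2 and 11 of 22 (50%) in Oligo5-2. With these counts the 2 mature cells no longer stood together, and only Oligo5-2 was near 50%. This way of merging was chosen after seeing the data. Of 76 pairs of near UMIs within a cell, 23 shared both ends within 5 bp (30.3%), against 136 of 5130 other pairs (2.65%).

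**Figure D3:**
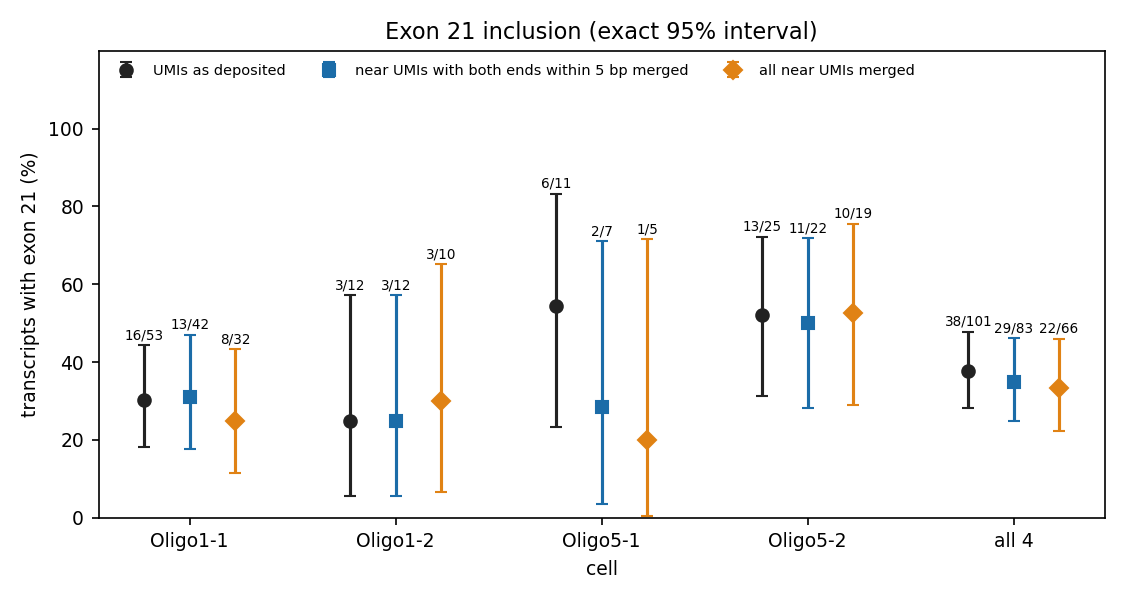
Percent of spanning transcripts with exon 21 (y axis) in each oligodendrocyte and in all 4 (x axis), with UMIs as deposited and after merging near UMIs in 2 ways, exact 95% intervals and counts. Oligo5-1 drops from 6 of 11 to 2 of 7 and 1 of 5, while Oligo1-1 and Oligo5-2 move little.

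Of the transcripts that spanned both exons, 84 in all, 52 had neither and 32 had exon 21 alone. The 32 are called gamma here by exons 12 and 21 only, whatever their other exons. Of the 52, 10 had the shorter end of exon 19 described below, the form known as delta. Oligo1-1 held 34 transcripts with neither exon, 6 of them delta, and 16 gamma transcripts. Oligo5-2 held 12 with neither exon, of which 2 were delta, and 11 gamma, of which 2 had the shorter exon 19. Oligo1-2 held 5, of which 2 were delta, and 1 gamma. Oligo5-1 held 1 with neither exon and 4 gamma, and these 4 are the transcripts with the near UMIs, which count as 1 after merging. Transcripts with and without exon 21 were thus seen within each oligodendrocyte, on 1 gamma transcript in Oligo1-2 and 1 of each kind after merging in Oligo5-1. Among transcripts that also covered a first exon, both kinds stayed in Oligo1-1 (25 with neither exon, 16 gamma) and Oligo5-2 (11 and 6).

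Exon 21 was present in 34 of 78 spanning transcripts of the long run alone (43.6%), in 3 of 14 of the short run alone (21.4%) and in 1 of 9 read in both (11.1%). Within the long run it was present in 14 of 43 for Oligo1-1, 3 of 8 for Oligo1-2, 5 of 5 for Oligo5-1 and 12 of 22 for Oligo5-2, where the 5 of Oligo5-1 include UMIs that resembled each other. The deposited exon numbers do not show this exon. They matched a 26-exon model without exon 21 for 188 of 189 transcripts, so that 29 of the 38 transcripts with exon 21 had a deposited exon structure that a transcript without it also had. Exon 21 was therefore read from the positions of the aligned blocks, with an exon counted as present when the blocks covered at least 50% of it.

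The shorter end of exon 19 was the less frequent one in each cell. It was used by 6 of 53 transcripts in Oligo1-1, or 11.3% (4.27% to 23%), and by 3 of 12 in Oligo1-2, or 25% (5.49% to 57.2%). It was used by 1 of 12 in Oligo5-1, or 8.33% (0.211% to 38.5%), and by 4 of 26 in Oligo5-2, or 15.4% (4.36% to 34.9%). These 14 of 103 transcripts used the site in capitals above, 88 used the annotated longer end, and 1 used neither. The shorter end occurred with exon 21 in 3 transcripts and without it in 11, and the longer end with it in 35 and without it in 51. Of the 14, 13 spanned exon 12 and 0 had it, whereas the annotated model with the shorter end, Enpp2-204, has it.

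Other coding exons were left out rarely. In Oligo1-1, 3 transcripts joined a shortened exon 3 directly to exon 9 and so lacked exons 4 to 8, among 63 transcripts that spanned those exons in all cells. They kept 58 or 59 of the 156 bases of exon 3, and with 59 bases kept, 582 bases were left out, or 194 codons with no remainder. The reference around the break is shown, with the left-out side in capitals, and below it the start of exon 9.
Exon 3 (chr15:54910102-54910161): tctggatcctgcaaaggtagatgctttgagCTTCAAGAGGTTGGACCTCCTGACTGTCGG
Exon 9 (chr15:54887579-54887608): ctatggattacagccaccaagcaaggggtg
The left-out side begins with CT, not with the GT of most 5′ splice sites, and exon 9 begins with the same 2 bases, so the break can be placed at any of these positions. The 3 transcripts came from the long run alone, had 1, 1 and 2 reads, all carried exon 21 and ended at the proximal site. After merging near UMIs with both ends within 5 bp, 2 of them remained.

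Exon 15, of 32 bp and not a whole number of codons, was left out by 1 transcript of Oligo1-1 and 1 of Oligo1-2, among 90 that spanned it. The first had a 13-bp block outside the annotated exons in its place and rested on 1 read. Merging near UMIs with both ends within 5 bp removed it. The second, with 3 reads, joined exon 14 to exon 16 at positions 79 and 100 bp from the annotated ends.

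Exons 4 and 8 were both present in 60 transcripts, both absent in 3 and never found one without the other. A two-sided Fisher's exact test on molecules, over the 28 pairs of alternative exons with both states (exons 3 to 8, 15 and 21), called the 15 pairs among exons 3 to 8 and no other pair. Exons 3 to 8 were listed as alternative because these same 3 transcripts lacked them, so the calls follow from the choice of exons and are a description of the 3 transcripts, and no p is given. Exon 8 was present in 23 of 26 transcripts with exon 21 and in 47 of 47 without it, and the 3 that lacked it are again these transcripts.

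Displaced splice sites were few. Of 4368 internal block ends in 150 spliced transcripts, 4310 (98.7%) lay on an annotated exon end, 20 lay 1 bp off and 38, or 0.87% (0.616% to 1.19%), lay farther off and were counted as displaced. Oligo1-1 had 31 of 2462 displaced, or 1.26% (0.857% to 1.78%), and Oligo1-2 had 3 of 398, or 0.754% (0.156% to 2.19%). Oligo5-1 had 4 of 352, or 1.14% (0.31% to 2.88%), and Oligo5-2 had 0 of 1156, which allows up to 0.26%. Ends of 1 molecule are not independent, and a single-read transcript of Oligo1-1 held 9 of its 31. Merging near UMIs with both ends within 5 bp removed that transcript, and displaced ends were then 0.689% over the 4 cells. By transcript, displaced ends occurred in 11 of 64 in Oligo1-1 (8.9% to 28.7%), 2 of 30 in Oligo1-2 and 2 of 26 in Oligo5-1. In Oligo5-2 it was 0 of 30, which allows up to 10% (exact upper end 11.6%). The intervals of Oligo1-1 and Oligo5-2 thus overlapped by transcript. By block end they did not, with an exact upper end of 0.319% for Oligo5-2. No test compared the cells. Among 161 genes with at least 100 internal ends, Enpp2 ranked 98 from the highest, and the median gene had 1.1%.

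The 38 displaced ends fell in 15 transcripts at 36 positions, of which 2 positions occurred in more than 1 transcript. One was the break in exon 3. The other, at chr15:54899372, lay 2 bp inside exon 6. After merging near UMIs with both ends within 5 bp, neither position was left in more than 1 transcript. A second transcript with the exon 3 break at chr15:54910133 did remain. Of the 38, 18 lay up to 10 bp from an annotated end and 20 farther, and 28 were in transcripts with a single read. The shorter exon 19, which is annotated, is not among them.

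**Figure D4:**
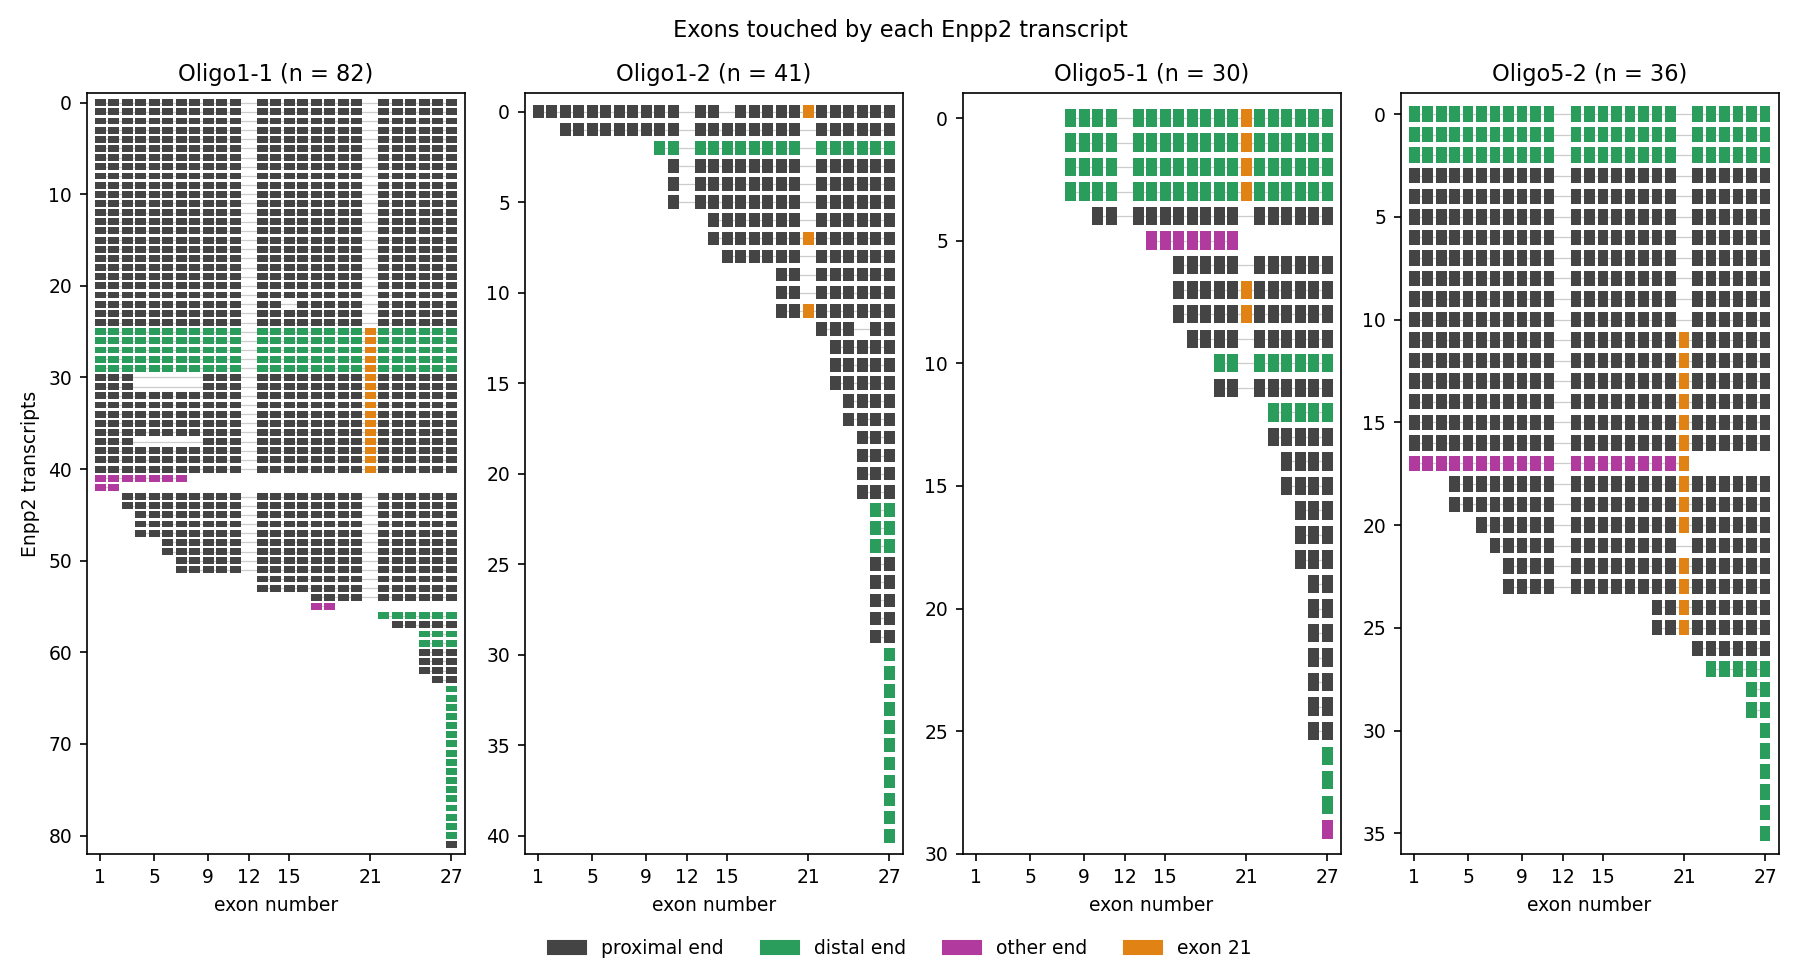
Each row is 1 Enpp2 transcript of the cell named above the panel, and the boxes are the exons it touches (x axis, exon number), colored by 3′ end, with exon 21 in orange. Exon 12 is empty in every row, exon 21 is filled in part of the rows of each cell, and transcripts that touch exon 27 alone nearly all have the distal end.

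Transcription start sites (TSS) were taken from the 62 transcripts that covered a first exon, and all 62 began upstream of the start codon at chr15:54919961. The 5′ ends formed 10 sites, with ends within 5 bp chained, and 6 without Oligo1-1. The largest, at chr15:54920011-54920021, had 25 transcripts, 18 in Oligo1-1 and 7 in Oligo5-2, with a median 57 nt before the start codon, at the annotated start of Enpp2-204 (chr15:54920018). The next, at chr15:54920125-54920137, had 22 transcripts, 14 in Oligo1-1, 1 in Oligo1-2 and 7 in Oligo5-2, with a median 171 nt before the start codon. It lay near the annotated start of Enpp2-207 (chr15:54920125), a model with a retained intron. The other 8 sites had 1 to 3 transcripts each.

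Both main start sites were used in both cells with good coverage of the first exon, and both were joined to either state of exon 21. The site nearer to the start codon had 7 transcripts with exon 21 and 15 without, and the farther site had 6 and 16. In all, 39 of the 62 transcripts began upstream of the first base of the RefSeq-linked first exons, at chr15:54920018. The 39 include some ends of the nearer main site, which runs to chr15:54920021. None of the 62 began at the annotated upstream starts at chr15:54922613 and chr15:54952892.

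The remaining 127 transcripts began farther downstream, at 72 sites, of which 46 had 1 transcript. Of all 189 transcripts, 82 began in exons 2 to 26, 38 in the last exon, and 7 outside the exons. The largest of these sites, at chr15:54839343-54839357 in the last exon, had 15 transcripts (Oligo1-1 held 6, Oligo1-2 4, Oligo5-1 1 and Oligo5-2 4), and all 15 ended at the distal site. Whether these 5′ ends are start sites of the mRNA was not tested.

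Transcription termination sites (TTS) were mainly 2. The proximal site, at chr15:54839260-54839284, lay a median 90 nt after the stop codon and had 122 transcripts, of which Oligo1-1 held 54, Oligo1-2 26, Oligo5-1 19 and Oligo5-2 23. The distal site, at chr15:54838901-54838914, lay 458 nt after the stop codon and had 61 transcripts, 25, 15, 9 and 12 in the same order. Each median was 7 bp from an annotated transcript end. The proximal share of the 2 sites was 68.4% (56.9% to 78.4%) for Oligo1-1 and 63.4% (46.9% to 77.9%) for Oligo1-2. It was 67.9% (47.6% to 84.1%) for Oligo5-1 and 65.7% (47.8% to 80.9%) for Oligo5-2, with intervals that overlapped throughout.

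The bases before each median end are shown, with the poly(A) signal AATAAA in capitals where it was found.
Proximal (chr15:54839276-54839305): atttattaatttgaaaccaggacataaaca
Distal (chr15:54838912-54838941): aatcttaaatatAATAAAtcacacattcag
AATAAA stood 22 bases before the distal end, counted from its first base to the median end at chr15:54838908. That end lies a few bases past the stretch shown. Neither AATAAA nor ATTAAA was found on the mRNA strand in the last 40 bases before the proximal end. Of 48042 GENCODE protein-coding transcripts with an annotated end, 47.8% held AATAAA and 59.1% held either of them in a window of that length.

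The 3′ end differed with the place where a transcript began. Of the 38 transcripts that began in the last exon, 36 had the distal end and 1 the proximal end. Of the 151 that began upstream of it, 121 had the proximal end and 25 the distal end, a proximal share of 82.9% (75.8% to 88.6%). By cell this share was 85.5% (74.2% to 93.1%) for Oligo1-1, 86.7% (69.3% to 96.2%) for Oligo1-2, 76% (54.9% to 90.6%) for Oligo5-1 and 79.3% (60.3% to 92%) for Oligo5-2. The last exon measures 261 bases up to the proximal site, and aligned lengths of at most 261 bp were rare, with 2 of the 189 Enpp2 transcripts and 4% of the transcripts of all genes. Some of the 38 began past the proximal site, such as 4 at chr15:54839209-54839219, and could only end beyond it. A further 3 began within it, at chr15:54839279-54839280. The 36 of 38 was therefore fixed in part by where these transcripts began. Short molecules had been removed by gel purification of the library, and the part of this in the counts was not tested.

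In Oligo1-1, 5 of 16 transcripts with exon 21 had the distal end, against 0 of 37 without it. In Oligo5-2 it was 0 of 13 with exon 21 and 3 of 12 without. In Oligo1-2 it was 0 of 3 and 1 of 9. In Oligo5-1 it was 4 of 6 and 1 of 5, where the 4 are the transcripts with the similar UMIs described above. In Oligo5-2, 2 of the 3 distal transcripts without exon 21 were near UMIs, which left 2 of 11 after merging. The intervals of its proximal share with and without exon 21 overlapped. In Oligo1-1 they did not, with 68.8% (41.3% to 89%) with exon 21 and 100% (90.5% to 100%) without it. After merging, these intervals were 31.6% to 86.1% and 88.1% to 100%. Oligo1-1 and Oligo5-2 thus differed in opposite directions, and no test was run.

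**Figure D5:**
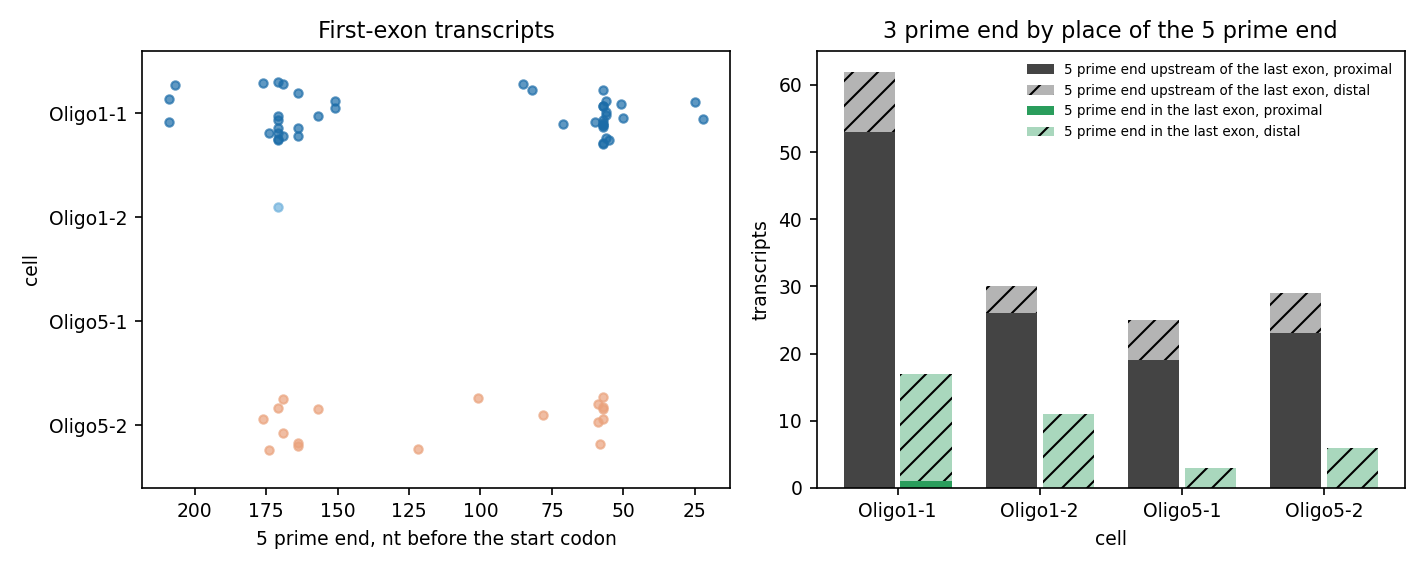
Left, 5′ ends of the transcripts that cover a first exon (x axis, nt before the start codon) by cell. Right, transcripts (y axis) with the proximal (solid) and distal (hatched) 3′ end by cell, split by whether the 5′ end lies upstream of the last exon or in it. The 5′ ends cluster near 57 and 171 nt, and 36 of the 38 transcripts that begin in the last exon have the distal end.

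A further 6 transcripts ended elsewhere, 1 at each of 6 places, so that there were 8 end sites in all and 5 without Oligo1-1. In Oligo1-1 they ended at chr15:54898647 in intron 7, at chr15:54917617 in intron 2, and at chr15:54863637, where a single block ran through intron 17. In Oligo5-1 they ended at chr15:54859792, 6 bp from the annotated end of Enpp2-209, a retained-intron model, and at chr15:54838517, beyond the annotated end of the gene. In Oligo5-2, 1 transcript ended at chr15:54851395 inside exon 21, where 12 of the next 20 bases are A.

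The 62 transcripts that covered a first exon formed 32 conservative isoforms, combinations of exon structure, TSS, TTS and splice sites. Oligo1-1 had 24 isoforms of 43 transcripts and Oligo5-2 had 10 of 18, with 8 and 4 transcripts in the most frequent isoform. Exon cassettes gave 6 structures as deposited and 8 once exon 21 was counted, and 54 of the 62 transcripts shared 1 deposited structure. The most frequent combination had no exon 21, the longer exon 19 and the proximal end, with 27 transcripts. The same with exon 21 had 17. Exon 21 with the distal end had 5, and the shorter exon 19 without exon 21 and with the proximal end had 5.

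The other genes of LPA metabolism and signalling were sampled thinly. Of 25 genes listed for it, 13 had any transcript. Lpar1, an LPA receptor, had 25 transcripts, with 6 from VLMC-2, 10 and 1 from the Oligo1 cells and 4 from each Oligo5 cell. It was the only receptor of 6 listed with more than 1 transcript. Rock1, a kinase downstream of the GTPase RhoA, had 13, of which 6 were in Oligo1-1, and its relative Rock2 had 6. Plpp3 (listed under its older name Ppap2b), a phosphatase that removes LPA, had 7, with 2 in VLMC-1 and 2 in Oligo1-2.

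Of 6 relatives of autotaxin listed, Enpp4 had 5 transcripts and Enpp6 had 7. Those of Enpp6, a choline phosphodiesterase of oligodendrocytes, were 4 in Oligo5-1 and 3 in Oligo5-2, with 0 in both Oligo1 cells.

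The 5 genes whose levels over the 6 cells were most like those of Enpp2 were Rab14, Taldo1, Ugt8a, Osbpl1a and Clcn3. Likeness was the overlap of the profiles, each the transcripts per 10000 of a cell scaled to sum to 1, over 219 other genes with at least 20 transcripts, matched to a model or not (218 were). The overlap was 96.6% for Rab14, 95.5% for Taldo1, 94.7% for Ugt8a, 93.2% for Osbpl1a and 92.8% for Clcn3, against a median of 64.7%. Rab14, a GTPase of vesicle traffic, had 22 transcripts. Ugt8a, which makes the myelin lipid galactosylceramide, had 264, with 98 and 59 in the Oligo1 cells and 54 and 53 in the Oligo5 cells. With 6 cells and 21 to 38 transcripts for the genes other than Ugt8a, the order of these 5 is within counting error.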

How the data were processed

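The authors deposited 1 table of transcripts, with the count of reads merged into each and the aligned blocks. They aligned circular consensus reads to mm10 with GMAP, joined blocks less than 40 bp apart, used the RefSeq isoform with most exons of each gene for exon numbers, and merged reads by UMI. Cells were mapped by the barcodes in the sample labels. Block starts count from 0 in the table, and 1 was added. Exon states were read from the blocks against GENCODE M21 (GRCm38), over transcripts with blocks on both sides of an exon. An exon was alternative when a protein-coding model that spans it lacks it or 2 or more transcripts skipped it. Ends within 5 bp were chained, and splice sites over 1 bp from an annotated exon end were displaced. A count of 0 was given a limit of 3 counts. Named genes were 25 genes of LPA biology, printed from 5 transcripts on, and the 5 with the most similar levels. Members, lists and alternatives were chosen with earlier results of these data known. Depth was 2338 to 11483 transcripts per cell, intervals are exact (Clopper-Pearson). Markers of astrocytes, microglia, endothelial cells and progenitors were counted as well: microglia markers gave 0 transcripts in every cell, endothelial markers 3 in Oligo5-1 and 0 elsewhere, astrocyte markers 0 to 21 and progenitor markers, which share Pdgfra with the VLMC list, 1 to 36. The steps were tested on simulated data. Python 3.11.15, numpy 2.4.6, scipy 1.17.1, pandas 2.3.3 and matplotlib 3.10.9 were used.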

Additional observations from a re-analysis of the deposited data

How the results depend on the processing

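No paired analysis was possible because each label group holds single cells whose numbers mark no shared animal or batch, and the only test compares molecules. Of 249 recomputed values, 197 stayed within the interval, call or count of the reported value, 51 moved and 1 reversed. The share of Enpp2 was 0.638% over the 4 oligodendrocytes, 0.534% with near UMIs merged, 0.495% in the short run alone and 0.967% in the long run alone. Exon 21 was at 37.6% in all, from 33.3% with near UMIs merged to 21.4% in the short run alone, and from 32.9% to 45.8% with 1 cell left out. In Oligo1-2 it was 100% among first-exon transcripts, of which there was 1, and 0% (0 of 4) in the short run alone. In Oligo5-1 it was 20% (1 of 5) with near UMIs merged and 100% (5 of 5) in the long run alone. In Oligo5-2 it was 28.6% for UMIs with 2 or more reads. Exon 12 stayed at 0. The 15 exon pairs called fell to 0 for UMIs with 2 or more reads and to 0 to 15 with 1 cell left out, with 0 without Oligo1-1, which holds all 3 transcripts behind them. The log2 odds ratio of exons 15 and 21 ran from -1.83 to 0.96 with 1 cell left out, above 0 without Oligo1-2 alone. Displaced ends were 0.502% for UMIs with 2 or more reads, 1.33% at a limit of 0 bp and 0.527% at 5 bp, and 0.367% to 1.18% with 1 cell left out, the lowest without Oligo1-1. The proximal share was 66.7%, and 86.4% among first-exon transcripts and 82.9% without transcripts that begin in the last exon. The 32 conservative isoforms became 20 with near UMIs merged, 17 for UMIs with 2 or more reads and 56 with ends not chained, and 11 to 32 with 1 cell left out, the fewest without Oligo1-1. Exon 21 as deposited could not be fitted, since the deposited numbers leave it out. UMIs equal to upstream bases, merging by both ends and the exclusion of last-exon starts were alternatives chosen after seeing the data. Start sites were 6 for UMIs with 2 or more reads, 25 with ends not chained and 5 within 20 bp, and end sites 3 with near UMIs merged, 5 for first-exon transcripts and 35 with ends not chained. Oligo1-2 and Oligo5-1 had 12 and 11 transcripts that spanned exon 21, against 53 and 25 in the other cells, which limits their values.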

Other observations

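In some transcripts the UMI matched the mRNA itself. The 6 bases of the UMI were compared with the transcript bases 9 to 4 upstream of the 5′ end, for the 152 Enpp2 transcripts with annotated sequence there. All 6 bases were equal in 11 transcripts, of which 7 began in exons 2 to 26 and 4 in the last exon, and in 0 of 32 that began in the first exon. At the 10 offsets starting 20 to 29 bases upstream, all 6 bases were equal in 0 of 152. With 5 or 6 equal bases there were 17 transcripts, of which 8 spanned exon 21 and 5 had it, against 33 of 93 among the others. Of these 5, 4 are the Oligo5-1 transcripts with near UMIs that began in exon 8. Without the 17 transcripts, exon 21 was at 35.5% over the 4 cells and at 31.4% for Oligo1-1, 25% for Oligo1-2, 28.6% for Oligo5-1 and 52.2% for Oligo5-2, and exon 12 stayed at 0.

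Of 3 pairs of Enpp2 transcripts from different cells with the same UMI, 2 also shared the 5′ end within 5 bp, both between Oligo1-1 and Oligo5-2. One, with the UMI GGCCTG, began in the last exon and is among the UMIs equal to all 6 upstream bases in both cells, and the other, with TGCCCT, began at chr15:54899375.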
